A study of Mus musculus with 9 samples.

Results

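Smarcb1 re-expression was compared with control in the murine T15 cell line, using 6 of the 9 RNA-seq libraries of the series, 3 of Smarcb1-RE cells and 3 of control cells, which were chosen by their sample titles. Of 35288 listed genes, 13697 were expressed highly enough to be tested. T15 was derived from a mouse model of Smarcb1-negative peripheral T-cell lymphoma (PTCL). Smarcb1-RE cells carried a Smarcb1 cDNA in the lentiviral, doxycycline-inducible plasmid pInducer20, had been selected with the antibiotic G418 and received doxycycline (Dox, 0.5 µg/µl) for 72 h before RNA was isolated. The 3 control libraries come from T15 cells without the Smarcb1 cDNA, but the sources differ on whether these cells were untreated, carried a control plasmid or received vehicle. Effects of transduction, clonal or antibiotic selection and Dox therefore cannot be told apart from those of Smarcb1. The 3 remaining libraries, of T15 cells treated with 1 µM SAHA (vorinostat, an inhibitor of histone deacetylases) over 72 h, entered the same statistical model and are used below only for comparison. The methods call the 3 libraries of each group biological replicates.

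SMARCB1 is a core subunit of the SWI/SNF chromatin remodelling complexes, which use ATP to move and evict nucleosomes and so open promoters and enhancers. The complexes oppose Polycomb proteins, which keep developmental genes silent in differentiated cells. Loss of SMARCB1 defines malignant rhabdoid tumors, and in mouse T cells its deletion rapidly gives rise to mature T-cell lymphoma.

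Smarcb1 (ENSMUSG00000000902, minus strand of chromosome 10 from 75896769 to 75921617, GRCm38) had 2, 5 and 8 counts in control replicates 1 to 3 and 151, 147 and 142 counts in Smarcb1-RE replicates 1 to 3. As CPM, the counts scaled to a common library size, normalized by edgeR's TMM method, the control libraries had 0.0850, 0.211 and 0.329 and the Smarcb1-RE libraries 6.44, 6.51 and 6.12. The groups did not overlap, and the log2 fold change was 4.89 ± 0.36 (standard error). By edgeR's quasi-likelihood test the adjusted p was 6.19e-08, with Benjamini-Hochberg adjustment over all tested genes as for every adjusted p below. Per kilobase of annotated exon, Smarcb1 reached 0.802 CPM in Smarcb1-RE cells, which placed it at rank 4 from the lowest among 27 tested SWI/SNF subunit genes, between Smarcd3 (0.403) and Ss18l1 (1.497) and well below the core subunits Smarca4 (33.5), Smarcc1 (19.8) and Smarce1 (11.8). The exon length used for Smarcb1 (7930 bases) sums all annotated isoforms and a cDNA carries only part of it, so that this level per length is a low estimate.

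The 6 libraries held between 20900424 and 24941408 counts, and at this depth 3 counts, taken as the detection floor per library, correspond to 0.123 to 0.133 CPM, a limit that covers counting error only. On the first principal component of all 9 libraries, which carried 57.4% of the variance, the Smarcb1-RE libraries lay together. The control libraries lay on its other side, as did those of SAHA. Control replicate 1 differed more from the other controls (chi-square per gene 13.4 and 15.0) than any other pair of replicates did (at most 4.69). Mitochondrial transcripts took 4.79% to 5.08% of counts in Smarcb1-RE and 3.02% to 3.53% in control. Genes above 0 counts numbered 17941 to 18068 in Smarcb1-RE and 17265 to 17572 in control. Of 10 T-cell markers, Cd2, Cd5 and Thy1 were at or under the floor in all 6 libraries, while the summed level of the 10 was 2208 to 2277 CPM in control and 2240 to 2273 CPM in Smarcb1-RE. The summed markers of 8 other cell types did not overlap between the groups. Those of macrophages and monocytes, neutrophils, mast cells and basophils, and neurons overlapped. Of all tested genes, 40.4% were higher and 39.1% lower in Smarcb1-RE without overlap. The 8 fibroblast markers summed to 6.34 to 8.92 CPM in control and 66.5 to 68.7 CPM in Smarcb1-RE through Pdgfra, with Col3a1, Dcn, Lum and Pdgfrb at or under the floor. The 10 B-cell markers summed to 92.9 to 96.2 and 155 to 164 CPM, with Cd79b at or under the floor. All 4 tested B-cell markers rose, and Ebf1 (91.9, 94.8 and 91.6 to 154, 147 and 155 CPM) carried most of the sum, while Pax5, on chromosome 4, had 0, 6 and 1 counts in control and 89, 92 and 88 counts in Smarcb1-RE. The 8 dendritic cell markers summed to 55.4 to 62.5 and 13.8 to 15.2 CPM through Ccr7, with 4 of them at or under the floor. The 2 other tested members rose, Xcr1 from 7, 2 and 9 to 15, 19 and 14 counts and Zbtb46 from 10, 6 and 3 to 24, 24 and 32 counts. Sums of natural killer (0.206 to 0.510 and 1.68 to 2.26 CPM) and erythroid markers (1.06 to 1.15 and 1.77 to 2.63 CPM) were higher in Smarcb1-RE. They rose through Eomes and Epor, the only members tested. Those of plasma cell (43.5 to 46.6 and 42.0 to 43.1 CPM), endothelial (147 to 155 and 131 to 132 CPM) and epithelial markers (0.803 to 1.45 and 0 to 0.128 CPM) were lower. These sums fell mostly through Xbp1, Pecam1 and Epcam. The endothelial marker Vwf rose, from 9, 4 and 3 to 34, 34 and 30 counts. In such bulk libraries, fewer cells of a type and less RNA per cell cannot be told apart. The part of these markers in the results below was not tested.

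In Smarcb1-RE cells, 5371 genes were upregulated (39.2% of those tested) and 5282 were downregulated (38.6%) at an adjusted p-value under 0.05. All 3 Smarcb1-RE libraries lay above all 3 control libraries for 5537 genes (40.4%) and below them for 5351 (39.1%). Because most tested genes changed, the share of a gene group that changed is read below against these percentages, and a fold change of at least 2 is given as well, which 2309 genes (16.9%) reached upwards and 928 (6.78%) downwards. At least 4-fold changes were found for 822 upregulated and 152 downregulated genes, and at least 8-fold changes for 263 and 73. Upregulated and downregulated genes differed in their level. The 2309 genes raised at least 2-fold had a median average log2 CPM of 1.24, the 928 lowered at least 2-fold one of 5.08, and all tested genes one of 4.70. Among 2378 genes that averaged under 1 the median log2 fold change was 0.89 and 1069 rose at least 2-fold, whereas among 6110 genes with an average over 5 it was -0.23 and 474 fell at least 2-fold against 214 that rose. Of the genes raised at least 2-fold, 131 had all 3 control libraries at or under the floor. Such genes passed the expression filter, which was applied over all 9 libraries, only through Smarcb1-RE or SAHA libraries. Change also went with length: among protein-coding genes with an average log2 CPM over 5, the median log2 fold change was -0.49 for those with the shortest exon sequence (up to 2814 bases) and -0.02 for those with the longest (over 6810 bases). The part of length and level in the gene groups below was not tested.

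**Figure D1:**
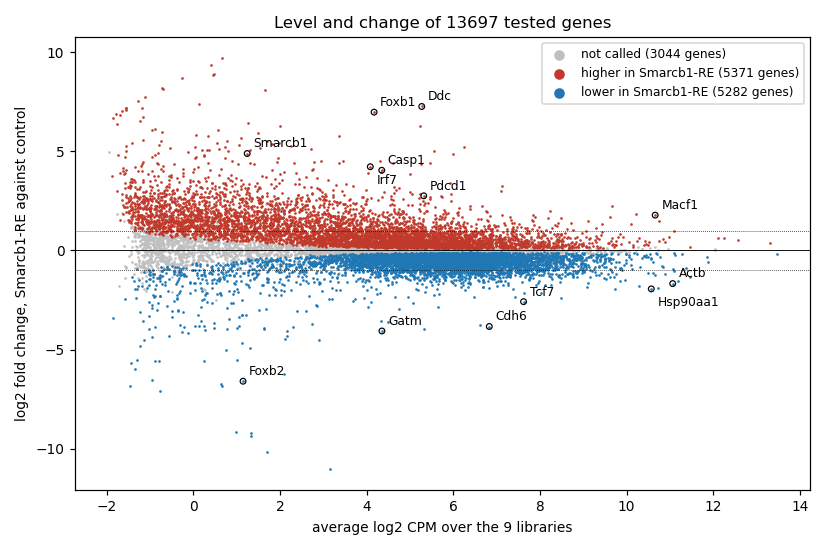
Log2 fold change in Smarcb1-RE relative to control (vertical axis) against the average log2 CPM over the 9 libraries (horizontal axis) for 13697 tested genes, with 5371 upregulated genes in red, 5282 downregulated genes in blue and 3044 genes without a call in grey. Dotted lines mark 2-fold changes. The red points spread upwards at low levels, and the abundant genes on the right lie mostly below 0.

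Genes of embryonic and neural development were among those with the largest increases. Foxb1, a forkhead transcription factor of the embryonic neural tube (chromosome 9 from 69757710 to 69760940), had 0.340, 0.380 and 0.535 CPM in the control libraries and 55.1, 51.3 and 53.7 CPM in the Smarcb1-RE libraries (log2 fold change 6.97 ± 0.13 standard error, adjusted p = 5.07e-13 by edgeR). Ddc, which encodes the decarboxylase that makes dopamine and serotonin (chromosome 11 from 11814101 to 11898144), had 0.765, 0.888 and 0.576 CPM in control and 109.8, 118 and 115 CPM in Smarcb1-RE (log2 fold change 7.26 ± 0.09). Both genes were below 1 CPM in all control libraries and above 50 CPM in all Smarcb1-RE libraries. Nr2f1, a nuclear receptor of the developing cortex, rose from 0.170, 0.0423 and 0.165 to 8.28, 7.35 and 7.98 CPM (5.91 on the log2 scale). Fam196b was under the floor in all control libraries (1, 0 and 1 counts) and had 215, 194 and 225 counts in Smarcb1-RE. Of 113 listed developmental transcription factors, 50 were tested, of which 30 rose and 7 fell. At least 2-fold, 22 rose and 3 fell, and the median log2 fold change was 0.81, against 0.01 over all tested genes. Among all 2378 genes that averaged under 1 log2 CPM, the median was 0.89 and 1069 rose at least 2-fold. Whether developmental factors rose beyond genes of like level was not tested. The homeobox gene Dlx1 rose from 1.62, 1.23 and 1.36 to 17.4, 18.1 and 17.8 CPM and the cardiac factor Gata4 from 2.76, 3.93 and 2.797 to 11.5, 10.3 and 11.2 CPM. Members moved in both directions within a family. Foxb2, the close relative of Foxb1, fell from 70, 74 and 92 counts to 1, 1 and 0 counts, which left all Smarcb1-RE libraries under the floor. Tbx4, a T-box gene of limb development, at 188, 204 and 199 CPM in control the most abundant of the named factors, fell slightly (log2 fold change -0.34).

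Hox genes, which set position along the body axis and are classical Polycomb targets, were tested for 23 of 39 members. Of these, 12 rose and 5 fell (median 0.69), and all called members of the Hoxa and Hoxd clusters rose, those of the Hoxb cluster fell and those of the Hoxc cluster did both. In the Hoxd cluster, Hoxd10 rose from 3.95, 3.42 and 2.88 to 8.75, 9.56 and 8.97 CPM, Hoxd11 from 4.04, 5.03 and 5.35 to 11.1, 9.83 and 11.5 CPM and Hoxd8 from 2.25, 2.58 and 3.08 to 6.14, 6.24 and 7.29 CPM, without overlap between the groups. Hoxb4, a factor of hematopoietic progenitors, fell from 37.1, 26.5 and 29.4 to 12.3, 13.2 and 13.5 CPM, and Hoxb3 from 4.85, 5.83 and 5.35 to 2.39, 1.37 and 2.11 CPM. Hoxc11 fell from 32, 27 and 41 counts to 2, 3 and 1 counts. Whether the clusters differed was not tested.

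Neural guidance and synaptic genes rose more often than they fell. Of 30 tested synaptic and neuroendocrine genes (66 listed), 20 rose and 3 fell, with a median of 0.65. Gabbr1, a subunit of the metabotropic GABA receptor, had 5.57, 4.78 and 6.05 CPM in control and 34.7, 34.4 and 35.6 CPM in Smarcb1-RE, and Shank1, a scaffold of the postsynaptic density, 1.06, 0.930 and 1.19 and 4.05, 4.16 and 4.7 CPM. Syt11, Cplx2 and Snap25 fell, the last a component of the vesicle fusion machinery (43.2, 41.8 and 42.1 CPM to 33.1, 34.7 and 33.5 CPM). Of 37 tested axon guidance genes (69 listed), 18 rose (48.6%) and 8 fell (21.6%), 12 and 2 of them at least 2-fold. Of all tested genes, 39.2% rose and 38.6% fell. Whether guidance and synaptic genes rose beyond genes of like level was not tested. Nrp2, a receptor for semaphorins and VEGF, rose the most among the named members, from 32.9, 42.5 and 42.98 to 307, 311 and 315 CPM (log2 fold change 2.98 ± 0.08). The guidance cue Ntn1 rose from 2.08, 1.94 and 2.71 to 12.2, 12.8 and 12.5 CPM and the semaphorin receptor Plxna3 from 17.99, 15.98 and 19.7 to 55.9, 59.9 and 56.96 CPM. Sema4d, a semaphorin of lymphocytes, fell from 18.5, 24.7 and 24.5 to 13.7, 13.1 and 15.2 CPM.

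Cadherins, matrix proteins and matrix proteases showed large changes both ways. Of 23 tested (67 listed), 15 rose, 11 of them at least 2-fold, and 5 fell, 4 of them at least 2-fold. The basement membrane collagen Col4a5 rose from 0.170, 0.169 and 0.370 to 4.44, 5.09 and 5.304 CPM (log2 fold change 4.35) and the laminin chain Lama5 from 0.468, 0.380 and 0.535 to 1.41, 1.64 and 2.199 CPM. Cdh6, a classical cadherin expressed in kidney and brain, fell from 142, 139 and 150.1 to 9.94, 9.96 and 10.3 CPM in every library (log2 fold change -3.83 ± 0.06), and the protease Adamts1 from 31.2, 32.8 and 33.9 to 2.73, 2.302 and 3.02 CPM. When only genes with at least 10 counts in every library were tested, 7 members of this group rose, 3 of them at least 2-fold, and 11 developmental factors rose at least 2-fold, since fewer members were then tested.

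Chemosensory receptor genes, known for their expression in sensory neurons, were read as a group only after their values had been seen. Of 1406 listed olfactory receptor genes and pseudogenes, 164 were tested on 17 chromosomes, of which 145 rose (88.4%), 132 of them at least 2-fold, and 2 fell. Of 318 listed vomeronasal receptor genes and pseudogenes, 72 were tested, of which 69 rose and 3 were not called. Other tested genes with an average log2 CPM under 1 rose in 49.1% of cases, and the median log2 fold changes were 1.64, 1.76 and 0.82 for the 3 groups. Their levels differed too, with a median average log2 CPM of 0.25, 0.64 and -0.29 in the same order. The part of level in this difference was not tested. The summed level of all listed olfactory receptor genes was 646, 540 and 604 CPM in control replicates 1 to 3 and 1268, 1268 and 1283 CPM in Smarcb1-RE replicates 1 to 3. Receptors with more than 3 counts numbered 163 to 174 in control libraries and 250 to 272 in Smarcb1-RE libraries. Olfr774, for instance, had 17, 11 and 26 counts in control and 186, 181 and 178 counts in Smarcb1-RE, and Olfr639 160, 131 and 234 and 1132, 1148 and 1171 counts. Only 1 of the tested olfactory and none of the vomeronasal receptor genes lies on chromosome 4. With at least 10 counts in every library, 73 olfactory and 39 vomeronasal receptor genes rose, as fewer were then tested. Many of these receptors closely resemble each other in sequence, so that counts of single members are uncertain. Unprocessed pseudogenes also rose more often than they fell (105 up and 10 down of 157 tested, median 0.94), as did genes on unplaced scaffolds (17 up and 1 down of 19, median 3.21), whereas processed pseudogenes, which derive from reverse-transcribed mRNA, counted 237 up and 225 down of 861, and 180 and 94 at least 2-fold.

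**Figure D2:**
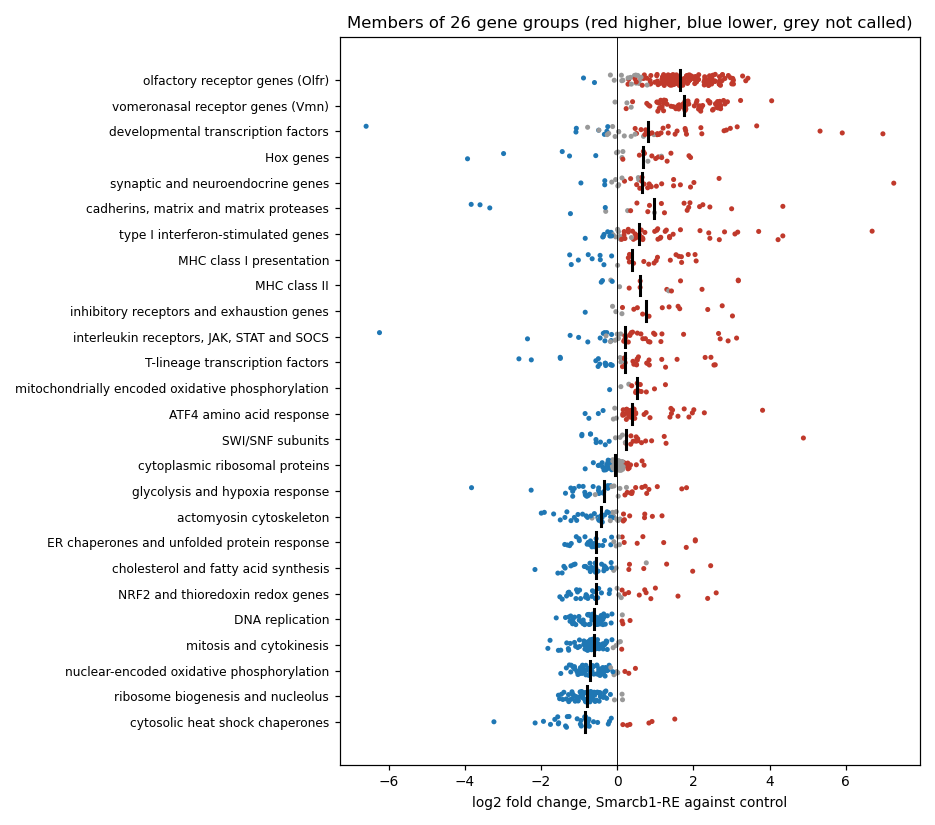
Log2 fold change in Smarcb1-RE relative to control for each tested member of 26 gene groups, with members called higher in red, called lower in blue and not called in grey, and the median of each group as a black bar. The 2 receptor families at the top were chosen after their values were seen. Chemosensory receptors and developmental factors lie right of 0, and chaperones, ribosome biogenesis, oxidative phosphorylation and cell division genes left of it.

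Genes that build ribosomes fell as a whole. All 70 listed ribosome biogenesis and nucleolar genes were tested, of which 67 fell and 3 were not called, with a median log2 fold change of -0.79. Nucleolin (Ncl), an abundant nucleolar protein, had 2919, 2936 and 2764 CPM in control and 1505, 1481 and 1529 CPM in Smarcb1-RE, and the rRNA methyltransferase fibrillarin (Fbl) 303, 265 and 243 and 143, 141 and 147 CPM. Members of the processome that cleaves and folds pre-rRNA fell further, such as Rrp9 (96.6, 90.5 and 86.2 to 30.4, 31.2 and 32.2 CPM, log2 fold change -1.54) and Noc4l (-1.51). A fall of at least 2-fold was seen for 20 members, and for 12 when libraries were scaled by their totals only. The 78 cytoplasmic ribosomal protein genes themselves did not move together: 11 rose, 25 fell and 42 were not called (median -0.06). Of the 11, 7 lie off chromosome 4. Rpl22, on chromosome 4, rose from 578, 495 and 467 to 856, 812 and 842 CPM while Rps2 fell from 2364, 2130.0 and 2064 to 1221, 1206 and 1233 CPM. Control replicate 1 stood above the other controls for most of these genes, and without it 29 rose and 23 fell.

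Most genes of DNA replication and cell division fell. Of 56 replication genes, all of them tested, 52 fell, 11 of them at least 2-fold, and 3 (Orc3, Pole and Rpa2) rose, with a median of -0.61. Orc3 and Rpa2 lie on chromosome 4. Mcm5, a subunit of the replicative helicase, had 514, 546 and 510.0 CPM in control and 201, 203 and 208 CPM in Smarcb1-RE (log2 fold change -1.36 ± 0.05), the flap endonuclease Fen1 194, 189.6 and 179 and 59.6, 62.8 and 62.9 CPM and thymidine kinase Tk1 171, 163 and 151 and 64.9, 68.7 and 67.6 CPM. The groups were far apart for each of them. Pcna, the sliding clamp, fell by less, from 492, 461 and 423 to 288, 292 and 287 CPM. Of 65 mitosis and cytokinesis genes, 60 fell, 11 of them at least 2-fold, and 1, Melk on chromosome 4, rose slightly (0.12 on the log2 scale), with a median of -0.61. The ubiquitin-conjugating enzyme Ube2c, which serves the anaphase-promoting complex, fell from 135, 128 and 122 to 40.5, 32.9 and 35.5 CPM, the mitotic kinase Plk1 from 102, 106 and 104 to 30.4, 31.6 and 29.97 CPM and Aurka from 76.3, 79.3 and 77.2 to 28.5, 25.1 and 26.2 CPM. The proliferation marker Mki67 was an exception, with 762, 731 and 861 CPM in control and 786, 753 and 769 CPM in Smarcb1-RE (adjusted p = 0.651, edgeR), and its groups overlapped.

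Short motifs were counted in the promoters of these genes. The shares cover all tested members with a promoter, whatever their change, and are no evidence for its direction. In the 300 bases from 250 before to 50 after the start of each gene (RefSeq, GRCm38.p6), letters of the cell cycle homology region (CHR, TTTGAA) were found on either strand in 37 of 54 promoters of mitosis genes (68.5%), against 12.4% of 9785 promoters of tested genes and 18.1% of all 27025 promoters. The CCAAT box (CCAAT), bound by NF-Y, was found in 68.5% of the mitosis and 60.9% of 46 replication promoters, against 3910 of 9785 promoters of tested genes and 37.9% of all promoters. An E2F motif (TTTGGCGC) was in 13.0% of replication promoters against 1.02% and 0.537%, and a second form (TTTCCCGC) in 17.4% against 2.15% and 1.11%. Of 65 and 56 tested members, 54 and 46 had a promoter in the table. The 616 promoters of all genes lowered at least 2-fold were close to those of tested genes. They held the CHR letters in 14.4%, CCAAT in 40.4%, TTTGGCGC in 0.974% and TTTCCCGC in 1.3% of cases. The promoters of Ube2c and Plk1 are shown for their CHR and CCAAT letters and that of Mcm5 for its E2F and CCAAT letters, all 5′ to 3′ on the strand of the gene with the motifs in capitals. In Ube2c, 2 CCAAT matches on opposite strands overlap.
Ube2c (chr2:164769679-164769978, plus strand): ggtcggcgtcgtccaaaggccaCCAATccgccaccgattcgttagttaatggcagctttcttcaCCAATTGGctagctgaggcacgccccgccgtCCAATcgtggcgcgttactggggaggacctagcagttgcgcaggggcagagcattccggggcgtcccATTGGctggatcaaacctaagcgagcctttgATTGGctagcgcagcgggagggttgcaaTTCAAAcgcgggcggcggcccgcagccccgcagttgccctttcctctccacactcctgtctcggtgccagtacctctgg
Plk1 (chr7:122159285-122159484, plus strand): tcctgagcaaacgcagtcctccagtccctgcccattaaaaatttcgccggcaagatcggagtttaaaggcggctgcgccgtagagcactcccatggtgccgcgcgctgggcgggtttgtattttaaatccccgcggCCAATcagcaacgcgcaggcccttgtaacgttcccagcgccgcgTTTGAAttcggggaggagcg
Mcm5 (chr8:75109309-75109558, plus strand): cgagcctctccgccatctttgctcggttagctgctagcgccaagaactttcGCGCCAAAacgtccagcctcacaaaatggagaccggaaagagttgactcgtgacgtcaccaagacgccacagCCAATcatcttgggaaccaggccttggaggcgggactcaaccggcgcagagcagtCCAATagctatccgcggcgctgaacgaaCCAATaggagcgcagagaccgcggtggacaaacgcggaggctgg
In Ube2c the CHR letters begin 29 bases before the start, in Plk1 30 bases after it, and in Mcm5 the E2F letters begin 149 bases before the start.

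Regulators of growth and the cell cycle changed in both directions. Myc fell from 352, 361 and 351 to 244, 233 and 245 CPM (log2 fold change -0.56 ± 0.04) and its partner Max from 58.3, 56.4 and 54.6 to 37.97, 36.1 and 36.8 CPM, while Mxd4, a repressor that competes with MYC for MAX, rose from 25.3, 27.9 and 27.1 to 106, 99.9 and 100.1 CPM. Of 41 cyclins, CDK inhibitors and RB family genes, 22 fell and 13 rose. The CDK inhibitor Cdkn1a (p21) rose from 1.96, 2.83 and 2.67 to 7.85, 8.32 and 7.63 CPM and Cdkn1c (p57) from 2.34, 2.37 and 1.81 to 9.13, 10.98 and 10.7 CPM, both from low levels. Ccnd2, the abundant D-type cyclin of these cells, fell from 949, 1146 and 1098 to 574, 571 and 576 CPM and Ccnb1 from 155, 156 and 157 to 53.5, 49.2 and 51.7 CPM. The p53 targets (15 up and 16 down of 35) and the BCL2 family and apoptosis genes (15 up and 16 down of 35) divided evenly. Within the latter, the inflammatory caspases stood out: Casp1, which matures IL-1β, rose from 3.7, 3.34 and 2.92 to 56.5, 51.2 and 56.7 CPM (log2 fold change 4.04 ± 0.11) and Casp4, which senses intracellular LPS, from 6.46, 4.99 and 5.26 to 79.7, 80.6 and 83.6 CPM. The pro-apoptotic Bcl2l11 (BIM) rose from 15.4, 18.05 and 18.3 to 68.6, 71.5 and 69.2 CPM. Txnip, an inhibitor of thioredoxin and of glucose uptake, rose from 14.6, 16.3 and 14.9 to 89.4, 94.1 and 93.9 CPM.

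Protein folding genes were among the most abundant transcripts to fall. Of 35 cytosolic heat shock chaperones, 29 fell, 13 of them at least 2-fold, and 6 rose (median -0.84). Hsp90aa1 had 2332, 2211 and 2144 CPM in control and 595, 574 and 579 CPM in Smarcb1-RE, Hsp90ab1 3837, 3812 and 3690.3 and 1523, 1473 and 1511 CPM, and Hspa8 3450.1, 3419 and 3327 and 1228, 1141 and 1148 CPM. These 3 chaperones were, with Actb and Actg1, the 5 genes with the largest loss of CPM of any called gene. Hsph1, which recharges HSP70, fell from 288, 323 and 325 to 73.9, 68.8 and 67.5 CPM (log2 fold change -2.16 ± 0.06). Of 35 endoplasmic reticulum (ER) chaperone and unfolded protein response genes, 23 fell and 8 rose (median -0.55). The ER chaperones Hspa5 (BiP, 1050.1, 949 and 936 to 482, 491 and 490.4 CPM), Calr (815, 786 and 801 to 340.1, 333 and 339 CPM) and Pdia6 (222, 206 and 208 to 90.3, 84.1 and 82.7 CPM) fell. The stress transcription factor Ddit3 (CHOP), by contrast, rose from 9.78, 8.54 and 8.801 to 36.6, 38.95 and 36.7 CPM, and Ppp1r15a, which dephosphorylates eIF2α, from 12.03, 10.4 and 9.62 to 36.3, 37.2 and 39.1 CPM.

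Genes of the amino acid response driven by ATF4 rose. Of 40 tested members, 33 rose, 11 of them at least 2-fold, and 4 fell (median 0.39). Trib3, a pseudokinase that restrains ATF4, had 15.5, 14.5 and 15.7 CPM in control and 71.5, 77.8 and 73.6 CPM in Smarcb1-RE, Atf5 15.4, 15.6 and 14.1 and 59.4, 59.6 and 62.5 CPM, and Chac1, which degrades glutathione, 9.27, 9.51 and 8.88 and 30.7, 32.4 and 30.5 CPM. Asparagine synthetase (Asns) rose by less, from 265, 266 and 256 to 353, 358 and 359.7 CPM. The serine synthesis enzymes Phgdh (441, 415 and 397 to 249, 251 and 248 CPM) and Psph and the tRNA synthetases Gars and Wars were the 4 that fell, and Psat1 was not called. In SAHA-treated cells, compared with the same control libraries, 32 of the 40 members fell and 4 rose (median -0.58), and when the treatments were set against each other 36 were above SAHA in Smarcb1-RE and 1 was below (median 0.92), where 37.7% of all tested genes were higher and 36.8% lower. Trib3 was 4.43 higher on the log2 scale in Smarcb1-RE than in SAHA, and Ddit3 3.09 higher.

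Energy metabolism divided by genome. Of 76 nuclear-encoded genes of oxidative phosphorylation, 68 fell and 3 (Ndufa6, Ndufa13 and Cox7a2l) rose, with a median of -0.70. Among those that fell were the ATP synthase subunit Atp5b (1186, 1206 and 1137 to 719, 718 and 711 CPM), the complex I subunit Ndufa5 (39.5, 32.8 and 30.3 to 12.2, 11.6 and 13.02 CPM) and cytochrome c (Cycs, 51.2, 43.9 and 41.2 to 19.5, 16.6 and 17.9 CPM). Of the 13 genes encoded on mitochondrial DNA, 10 rose and 1 fell (median 0.53). mt-Nd4 had 1755, 1449.8 and 1512 CPM in control and 3234, 3060.3 and 2995 CPM in Smarcb1-RE, mt-Co2 5080.3, 3692 and 3549.7 and 6492, 6189.9 and 6400.1 CPM, and mt-Nd1, the member that fell, 2872, 2409 and 2260.3 and 2228, 2166 and 2176 CPM. Its call was lost without control replicate 1, when 12 of the 13 rose (log2 fold change -0.10, adjusted p = 0.0584, edgeR), and without Smarcb1-RE replicate 2 (adjusted p = 0.0657) or 3 (0.0658). It was also lost with at least 10 counts in every library (-0.14, adjusted p = 0.0871, edgeR) and with library totals only (-0.04). Over all alternatives its adjusted p ranged from 0.00223 to 0.619. These transcripts come from shared precursors and their total moved with the groups as given above, so that they are not independent of each other. The medians of both gene groups kept their sign in every alternative in which they were computed, which did not include DESeq2. Lars2, the mitochondrial leucyl-tRNA synthetase, rose from 431, 357 and 284 to 1525, 2132 and 1408 CPM, with a wide spread within both groups.

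Lipid synthesis genes fell. Of 41 tested genes of cholesterol and fatty acid synthesis and uptake, 32 fell, 8 of them at least 2-fold, and 6 rose (median -0.56). The desaturase Scd1 had 261, 297 and 302 CPM in control and 66.04, 63.9 and 62.8 CPM in Smarcb1-RE, and fatty acid synthase (Fasn) 501, 581 and 616 and 215, 212 and 216 CPM. The cholesterol exporter Abcg1 rose from 17.2, 20.1 and 18.3 to 46.2, 46.4 and 44.1 CPM. With SAHA, 25 of the 41 genes rose against the same controls and 7 fell, and 32 were lower in Smarcb1-RE than in SAHA. Of 43 genes of glycolysis and the hypoxia response, 24 fell and 13 rose. The lactate dehydrogenase Ldha fell from 1198, 1148 and 1097 to 487, 411 and 445 CPM and pyruvate kinase Pkm from 2529, 2498 and 2406 to 1228, 978 and 1103 CPM, whereas Vegfa, a hypoxia target, rose from 17.2, 15.6 and 16.1 to 62.1, 50.8 and 59.4 CPM. Of 39 NRF2 and thioredoxin redox genes, 25 fell and 11 rose (median -0.57), with Gpx1, a glutathione peroxidase, at 131, 119 and 121 CPM in control and 43.99, 43.7 and 42.99 CPM in Smarcb1-RE.

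The actin cytoskeleton fell, led by its main subunits. Actb had 3302, 3409 and 3254 CPM in control and 1075, 1018 and 1042 CPM in Smarcb1-RE (log2 fold change -1.67 ± 0.04) and Actg1 2466, 2465 and 2362 and 665, 616 and 655 CPM (-1.91 ± 0.04). The intermediate filament vimentin (Vim) fell from 1833, 1808 and 1749 to 816, 730.0 and 779 CPM. Of 46 tested actomyosin cytoskeleton genes, 27 fell, 10 of them at least 2-fold, and 8 rose (median -0.41). Giant linker proteins of actin and membranes moved the other way: Macf1 rose from 901, 791 and 990.1 to 3052, 3075 and 3084 CPM and Ahnak from 1029.9, 839.5 and 1149 to 2799.6, 2792 and 2776 CPM, and control replicates 1 to 3 varied more for both than the Smarcb1-RE replicates did.

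**Figure D3:**
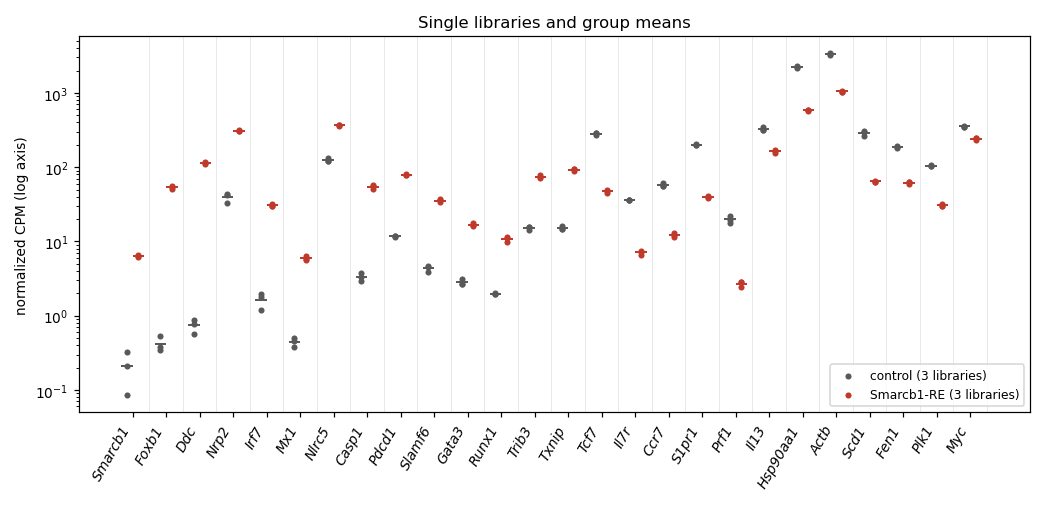
Normalized CPM (log axis) of 26 genes in each control library (grey) and each Smarcb1-RE library (red), with the group mean as a short line. No gene shown has overlapping groups. Smarcb1 has 0.0850 to 0.329 CPM in control and 6.12 to 6.51 CPM in Smarcb1-RE.

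Interferon-stimulated genes rose in Smarcb1-RE cells. Of 60 tested members (68 listed), 43 rose, 22 of them at least 2-fold, and 8 fell, with a median of 0.58. Irf7, the transcription factor that amplifies type I interferon (chromosome 7 from 141262706 to 141266481), had 1.79, 1.94 and 1.19 CPM in control and 29.95, 31.8 and 30.2 CPM in Smarcb1-RE (log2 fold change 4.22 ± 0.19). The antiviral GTPases Mx1 and Mx2 rose from 0.383, 0.507 and 0.452 to 6.44, 5.799 and 5.56 CPM and from 0.213, 0.296 and 0.0411 to 4.39, 3.19 and 3.84 CPM. Ifit1, which binds viral RNA, rose from 5.95, 5.62 and 6.09 to 15.8, 16.1 and 16.99 CPM, and Rsad2 (viperin), which was singled out after its values were seen, from 2.17, 2.45 and 1.97 to 15.4, 15.7 and 15.4 CPM. The groups were apart for each of these genes. The RNA and DNA sensors moved in both directions (16 up and 7 down of 28 tested, 14 and 7 without the 2 members on chromosome 4). Tlr4, the LPS receptor, rose from 3, 3 and 0 counts to 70, 63 and 76 counts and the RNA receptor Tlr3 from 2.85, 3.47 and 4.24 to 8.53, 7.13 and 7.85 CPM, while the DNA sensor Cgas fell from 40.01, 45.5 and 40.6 to 30.9, 36.03 and 33.4 CPM and the exonuclease Trex1 from 54.6, 53.6 and 48.1 to 31.1, 31.1 and 33.5 CPM.

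The interferon-stimulated response element (ISRE, searched as GAAANNGAAA on both strands) was found in 20 of 44 promoters of the tested interferon-stimulated genes (45.5%), against 3.25% of promoters of tested genes, 5.09% of those of genes raised at least 2-fold and 3.49% of all promoters in the table. The share for the interferon-stimulated genes covers all tested members with a promoter, whatever their change, and is no evidence for its direction. The last 200 bases of the promoters of Ifit1 and Rsad2 are printed with the ISRE letters in capitals. They run 5′ to 3′ on the strand of the gene (RefSeq, GRCm38.p6).
Ifit1 (chr19:34640739-34640938, plus strand): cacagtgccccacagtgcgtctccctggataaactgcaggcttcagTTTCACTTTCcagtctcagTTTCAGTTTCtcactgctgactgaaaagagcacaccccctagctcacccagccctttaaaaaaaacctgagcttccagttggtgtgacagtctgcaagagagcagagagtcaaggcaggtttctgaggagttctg
Rsad2 (chr12:26456403-26456602, minus strand): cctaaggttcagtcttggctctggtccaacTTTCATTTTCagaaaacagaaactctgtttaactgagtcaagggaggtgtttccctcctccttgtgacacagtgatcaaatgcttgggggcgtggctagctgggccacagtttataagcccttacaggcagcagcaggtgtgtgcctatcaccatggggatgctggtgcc
Ifit1 holds the letters at 104 and 85 bases before its start and Rsad2 at 120 bases, each on the strand opposite to the gene.

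Antigen presentation rose in part. Of 28 class I genes, 18 rose, 10 of them at least 2-fold, and 9 fell. Nlrc5, the transactivator of class I genes, had 119.7, 123 and 134 CPM in control and 362, 364 and 370.2 CPM in Smarcb1-RE (log2 fold change 1.54 ± 0.05). The classical heavy chain H2-K1 rose from 1600.1, 1422 and 1438 to 2423, 2425 and 2386 CPM, β2-microglobulin (B2m) from 808, 736 and 739 to 968, 920.0 and 959.6 CPM and the Qa-2 gene H2-Q7 from 567, 497 and 539 to 1941, 1932 and 1959.5 CPM. H2-Q genes share most of their sequence, so that their single values are uncertain. The 3 members that fell at least 2-fold were the ER chaperones Calr and Pdia3, which load peptides, and the immunoproteasome subunit Psmb10 (126, 106 and 102 to 54.4, 53.7 and 56.2 CPM). Of 15 class II genes and their regulators, 9 rose and 3 (the broadly expressed factors Nfya, Nfyc and Rfxap) fell, and 5 rose when at least 10 counts were required in every library. H2-Ab1, whose product mouse T cells do not normally express, was at 0.340, 0.296 and 0.452 CPM in control and 3.797, 3.32 and 2.89 CPM in Smarcb1-RE and the invariant chain Cd74 at 0.383, 0.550 and 0.452 and 2.47, 1.903 and 2.16 CPM, but H2-Aa stayed near the floor in both groups (0.0427, 0.310 and 0.172 CPM in Smarcb1-RE). The interferon-γ-inducible GTPases divided (12 up and 7 down of 22), Gbp10 rising from 31.5, 33.8 and 34.96 to 157, 159.7 and 166 CPM and Irgm1 falling from 237, 237 and 228 to 107, 107 and 107 CPM.

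T-cell receptor and signalling genes changed in both directions. The receptor chain Cd3e had 374, 402 and 410.3 CPM in control and 324, 324 and 329.9 CPM in Smarcb1-RE, the kinase Lck 335, 338 and 330.2 and 544, 539.5 and 540.3 CPM, and the phosphatase CD45 (Ptprc) 633, 643 and 647 and 1667, 1631 and 1627 CPM. Ptprc and Lck rose and Cd3e fell slightly (-0.28 on the log2 scale). The kinase Zap70 was not called (-0.02). Prkcq, the protein kinase C of the T-cell synapse, rose from 0.850, 0.423 and 0.740 to 4.22, 4.29 and 3.67 CPM. Of 32 tested T-cell receptor and proximal signalling genes, 14 rose and 12 fell, and 13 and 12 without the 1 member on chromosome 4. Cd4 was too low to be tested.

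Transcription factors of the T lineage changed in both directions, some of them strongly. Of 39 tested, 22 rose and 14 fell. Without the 5 members on chromosome 4, which carried a shift of its own (below), 17 rose and 14 fell. At least 2-fold, 7 rose (17.9%) and 4 fell (10.3%), against 16.9% and 6.78% of all tested genes. Tcf7 (TCF-1), a factor of naive and stem-like T cells, had 270.4, 291 and 285 CPM in control and 44.8, 48.9 and 47.8 CPM in Smarcb1-RE (log2 fold change -2.58 ± 0.05). Gata3, the factor of type 2 helper cells, rose from 3.15, 2.66 and 2.63 to 16.7, 17.4 and 16.2 CPM and Runx1, a factor of early T-cell development, from 1.999, 1.94 and 1.93 to 11.01, 9.83 and 11.6 CPM. Each of these moved in all 3 libraries without overlap. Zeb2, a factor of terminal effector cells, fell from 13.3, 14.2 and 15.01 to 4.78, 5.4 and 4.87 CPM, Runx3 rose from 122, 141 and 139 to 191, 185 and 195 CPM, and Tbx21 (T-bet) fell from 220.1, 223 and 210.2 to 152, 142 and 149 CPM. Bcl11b, which secures T-cell identity, was nearly unchanged in size (-0.13), and this small difference turned to 0.03 when libraries were scaled by their totals only.

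Receptors of T-cell traffic and survival also changed. S1pr1, the receptor for exit from lymphoid tissue, had 196, 201 and 208 CPM in control and 39.1, 38.7 and 41.3 CPM in Smarcb1-RE, Ccr7, the receptor for homing to lymph nodes, 61.6, 54.99 and 54.99 and 13.1, 12.4 and 11.5 CPM, and the interleukin 7 receptor (Il7r) 36.4, 36.1 and 36.6 and 7.17, 6.64 and 7.503 CPM. Their log2 fold changes were -2.35, -2.22 and -2.36 with standard errors of 0.04, 0.06 and 0.06. Klf2, a factor of quiescent T cells that activates S1pr1, rose at a low level, from 1.49, 1.01 and 1.32 to 3.41, 2.79 and 3.02 CPM, and Lef1, a relative of Tcf7, from 0.128, 0.169 and 0.288 to 0.555, 0.487 and 0.733 CPM. Of 20 tested chemokine and chemokine receptor genes, 10 rose and 7 fell. Ccl5, a chemokine of effector T cells, rose from 219, 209 and 196 to 569.6, 505 and 554 CPM and Cxcl10 fell from 63.1, 62.3 and 64.2 to 16.1, 15.01 and 15.8 CPM. Among Wnt pathway genes (16 up and 11 down of 33), Axin2, a direct target of β-catenin and TCF, fell from 2.72, 3.17 and 4.65 to 0.384, 0.487 and 0.474 CPM, the ligand Wnt10b from 172, 169 and 169.6 to 45.5, 50.9 and 48.1 CPM and Ctnnb1 from 292, 306 and 296 to 206, 194 and 198 CPM.

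Inhibitory receptors rose. Of 16 tested inhibitory receptor and exhaustion genes (26 listed), 12 rose, 7 of them at least 2-fold, and 1 fell (median 0.75, and 0.60 without the 2 members on chromosome 4). Pdcd1 (PD-1) had 11.7, 11.4 and 12.01 CPM in control and 79.1, 79.99 and 78.6 CPM in Smarcb1-RE (log2 fold change 2.76 ± 0.08), Havcr2 (TIM-3) 7.95, 9.004 and 8.35 and 28.1, 23.5 and 27.4 CPM, and Slamf6 4.59, 3.85 and 4.61 and 33.7, 35.8 and 36.8 CPM. The factor Tox rose from 239, 274 and 265 to 469, 457 and 463 CPM and Nr4a3 from 9.61, 12.7 and 12.9 to 61.9, 59.2 and 61.8 CPM. Lag3 was at or under the floor in control (2, 2 and 3 counts) and had 9, 5 and 4 counts in Smarcb1-RE. Galectin-9 (Lgals9), a ligand of TIM-3, was the member that fell, from 13.1, 14.7 and 12.5 to 7.55, 7.17 and 7.76 CPM. Cytotoxic genes showed no common direction (7 up and 6 down of 15 tested). Perforin (Prf1) fell from 19.6, 17.8 and 21.8 to 2.82, 2.88 and 2.41 CPM, while the cathepsin Ctsw rose from at most 2 counts (2, 1 and 2) to 61, 60 and 72 counts, and Gzma and Gzmb were too low to be tested.

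Cytokine genes and their receptors changed in both directions. Of 46 interleukin receptor, JAK, STAT and SOCS genes, 27 rose and 12 fell. At least 2-fold, 7 rose (15.2%) and 4 fell (8.7%), against 16.9% and 6.78% of all tested genes. The shared β chain Csf2rb, which serves IL-3, IL-5 and GM-CSF, rose from 7.19, 8.88 and 8.35 to 59.5, 62.8 and 61.5 CPM, the IL-10 receptor Il10ra from 18.3, 16.4 and 15.96 to 114, 109 and 107 CPM and Il18r1 from 0.255, 0.254 and 0.535 to 2.901, 2.83 and 3.58 CPM. Il1rl1 (ST2), the receptor for IL-33 of type 2 cells, fell from 107, 116 and 118 counts to 2, 2 and 0 counts, under the floor in all 3 Smarcb1-RE libraries. Among type 2 genes (5 up and 5 down of 13 tested), Il13 fell from 346, 318 and 314 to 169, 156 and 163 CPM and Il10 rose from 2, 1 and 5 counts to 85, 89 and 111 counts. Ifng, the signature cytokine of type 1 cells, was not called (25.7, 22.3 and 22.2 CPM in control and 25, 23.8 and 26.5 CPM in Smarcb1-RE, adjusted p = 0.199, edgeR). Against SAHA-treated cells its log2 difference was -2.80, and it was lower in Smarcb1-RE.

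Chromatin regulators changed in both directions. Of 27 SWI/SNF subunit genes, 14 rose and 9 fell, 3 rising at least 2-fold with Smarcb1 included (median 0.22). The ATPase Smarca4 (BRG1) fell from 346, 357 and 356 to 214, 222 and 215 CPM, the scaffold Smarcc1 from 264, 317 and 304 to 153, 158 and 153 CPM and Actl6a from 139, 137 and 128 to 71.9, 71.6 and 68.8 CPM. Of subunits particular to the PBAF or the non-canonical complex, Arid2 fell (-0.21 on the log2 scale), Phf10 rose from 68.97, 66.3 and 65.8 to 126, 124 and 125 CPM and Brd9 from 71.6, 64.2 and 62.9 to 93.3, 94.4 and 92.7 CPM, while Pbrm1 was not called (0.08). The Polycomb methyltransferase Ezh2 differed by 0.16 on the log2 scale, Eed fell from 125, 117 and 108 to 79.7, 81.7 and 80.8 CPM, and Epop, a PRC2 cofactor, fell from 90.4, 81.03 and 78.8 to 21.6, 21.6 and 21.4 CPM. Polycomb group lists as wholes had no direction (PRC2 6 up and 6 down of 14, PRC1 8 and 8 of 21). Among histone deacetylase and acetyltransferase genes (13 up and 11 down of 28), Hdac5 rose from 21.6, 21.9 and 21.2 to 71.7, 76.4 and 74.3 CPM, whereas Hdac1, Hdac2 and the acetyltransferase Kat2a (138, 147 and 140.1 to 69.3, 60.6 and 64.5 CPM) fell. Tet2, which oxidizes methylcytosine, rose from 26.3, 29.1 and 36.6 to 77.7, 73.8 and 76.2 CPM and the de novo methyltransferase Dnmt3a from 8.76, 8.79 and 10.1 to 13.99, 16.4 and 14.3 CPM, while Dnmt1 fell from 459, 525 and 519.7 to 385, 393 and 398 CPM.

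Other large losses concerned single metabolic and signalling genes. Gatm, the first enzyme of creatine synthesis, fell from 38.4, 34.8 and 36.8 to 2.22, 1.95 and 2.41 CPM and Gldc, which cleaves glycine, from 8.63, 8.88 and 9.62 to 0.256, 0.487 and 0.431 CPM. Gsdma, a gasdermin, fell from 45.2, 41.6 and 42.5 to 2.52, 2.92 and 2.803 CPM. By the fitted fold change the 3 were 16.7-fold, 22.9-fold and 15.7-fold lower. Hexa, a lysosomal hexosaminidase, fell from 106, 100 and 84 counts to 3 counts in each Smarcb1-RE library, the calcium sensor Ncs1 from 54, 44 and 64 counts to 1 count in each Smarcb1-RE library, and the matrix protein Npnt from 5.32, 5.96 and 6.13 to 0.469, 0.310 and 0.259 CPM.

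Chromosome 4 carried a shift of its own. In Smarcb1-RE, 481 of 838 tested chromosome 4 genes were upregulated and 173 downregulated. The chromosome held 6.12% of tested genes but 8.96% of those upregulated and 3.28% of those downregulated, and 7.75% and 3.34% of those changed at least 2-fold. It took 7.16% to 7.22% of all counts in the Smarcb1-RE libraries and 5.64% to 5.69% in the control libraries. For the 674 protein-coding genes whose average log2 CPM was 1 or more, the median shift against the other autosomes was 0.38, 0.40 and 0.38 in Smarcb1-RE replicates 1 to 3, each measured against the mean of the controls. No other chromosome came near: shifts of the fitted medians ranged from -0.15 on chromosome 11 to 0.08 on chromosome X. Of the upregulated genes, 35.6% of those on chromosome 4 and 34.6% of the others rose by less than 1.5-fold.

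**Figure D4:**
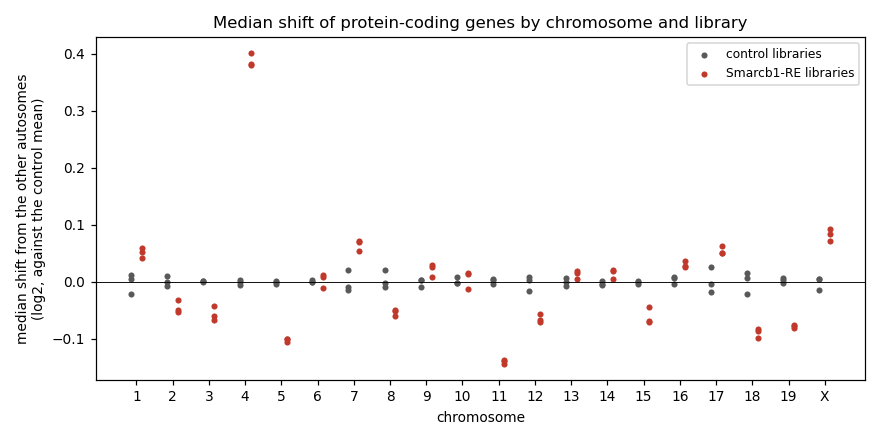
Median log2 difference from the mean control level of protein-coding genes on each chromosome, minus that of the other autosomes, for each of the 3 control (grey) and 3 Smarcb1-RE (red) libraries. The 3 Smarcb1-RE libraries lie at 0.38 to 0.40 on chromosome 4 and between -0.15 and 0.09 on all other chromosomes.

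Along chromosome 4 the shift was uneven. In 16 consecutive windows of 40 genes, the window medians minus the median of the autosomes ranged from 0.02 to 0.54, and 8 of the 16 exceeded 0.3, compared with 9 of 243 windows on other chromosomes. The 8 were windows 1 to 3 (0.53, 0.53 and 0.44, from Tmem68 to Glipr2), 6 (0.48), 8 (0.41), 13 (0.48), 15 and 16 (0.54 and 0.39, from Zfp990 to Ski), and the lowest was window 10, from Pabpc4 to Zmym6. The highest window of the genome lay elsewhere, on chromosome 7 from Trim68 to Tmem9b (0.74), a region of olfactory receptors, Trim genes and the interferon-inducible Gvin1 (6.76, 2.24 and 7.53 to 25.9, 33.5 and 28.4 CPM), and a window of the class I region on chromosome 17 from Nfkbil1 to Olfr90 stood at 0.48. Large changes on chromosome 4 itself went both ways. Trp53inp1, a p53-induced autophagy gene, rose from 28.2, 34.4 and 33.7 to 308, 306 and 304 CPM and the glycine transporter Slc6a9 from 10.3, 9.55 and 11.4 to 76.7, 86.9 and 77.3 CPM. Selenon, a selenoprotein of muscle, fell from 5.49, 6.34 and 5.799 to 0.256, 0.177 and 0.345 CPM, and Tnfrsf8 (CD30), a receptor of activated lymphocytes and a lymphoma marker, from 112, 113 and 116 to 22.6, 23.5 and 21.5 CPM. Whether the shift goes with Smarcb1, with Dox or with transduction and selection cannot be told apart with these groups.

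**Figure D5:**
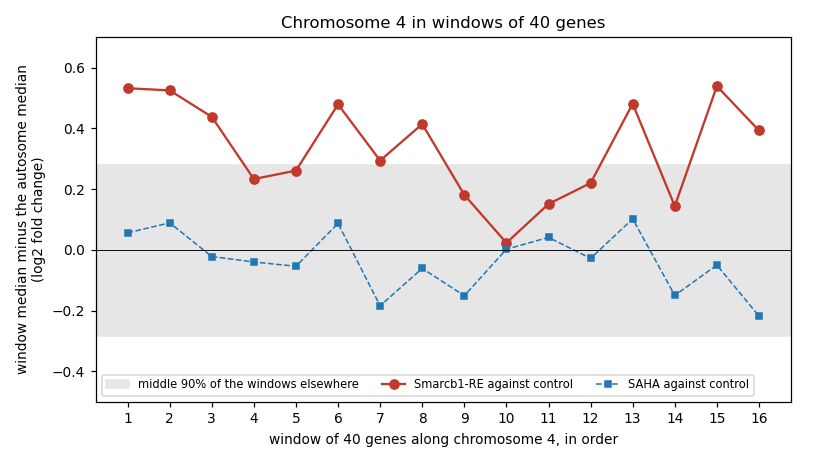
Median log2 fold change of each of 16 windows of 40 genes along chromosome 4 minus the median of the autosomes, for Smarcb1-RE (red) and SAHA (blue) against the same control libraries. The grey band spans the middle 90% of the 243 windows on other chromosomes in Smarcb1-RE (-0.29 to 0.28). The red line runs from 0.02 to 0.54.

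The gene groups above were counted again without chromosome 4. Across the 50 lists, 88 tested entries lie on chromosome 4, and leaving them out turned the sign of 1 list's median (Polycomb PRC1) and moved 4 medians by more than 0.1. These were the cyclins and CDK inhibitors (from -0.21 to -0.37), class II genes (from 0.60 to 0.95), inhibitory receptors (from 0.75 to 0.60) and type 17 and regulatory genes (from 0.98 to 1.37). Without chromosome 4, the numbers of upregulated and downregulated genes were 4890 and 5109, and 2130 and 897 at least 2-fold.

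Compared directly with SAHA-treated cells, 5170 genes were higher in Smarcb1-RE and 5042 lower. Foxb1 (7.73), Ddc (6.91) and Fam196b (8.85) were higher by log2 differences close to or above those against control. Il1rl1 (-6.94), Foxb2 (-6.47) and Irf8, a factor of myeloid cells and B cells (-5.29), were lower. Irf8 had 2.68, 3.297 and 3.002 CPM in control, 0.341, 0.531 and 0.474 CPM in Smarcb1-RE and 14.5, 19.4 and 19.3 CPM in SAHA. Smarcb1-RE stood lower than SAHA in 33 of 46 actomyosin genes and 29 of 35 heat shock chaperones, against 36.8% of all tested genes. Of the 60 tested interferon-stimulated genes, 29 were higher and 20 lower in Smarcb1-RE than in SAHA, and Mx2 was not called (0.05 ± 0.25). For the olfactory receptors, 67 of 164 rose with SAHA against the same controls and 121 were higher in Smarcb1-RE than in SAHA.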

How the data were processed

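RNA-seq was performed on the T15 cell line (3 libraries each of control, Smarcb1-RE and SAHA). Libraries were prepared with a directional NEBNext Ultra II kit and sequenced single-end on a NextSeq instrument. Salmon 0.14.1, DESeq2 1.22.2, FastQC 0.11.8, MultiQC 1.7 and GRCm38 are named in the submitters' processing notes. The deposited values are estimated counts per gene made by the authors (expected counts, 52.3% of the values above 0 not whole), which were rounded to whole numbers here. Gene symbols and positions were matched from GENCODE M21, and 99.5% of the identifiers were found. Models were fitted by quasi-likelihood in edgeR 4.0.16 under R 4.3.3 (normalized by TMM, genes kept by filterByExpr) over all 9 libraries without a block, and p-values were adjusted by Benjamini-Hochberg over 13697 genes at a threshold of 0.05. Averages are log2 CPM over 9 libraries. A log2 fold change uses edgeR's prior count and understates the change of genes with few counts. The code was tested on simulated data. DESeq2 1.42.0 served as an alternative.

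Members and gene lists (50 lists, 1559 distinct tested genes, 5 entries not matched) were chosen with earlier results of these data known, and a list chosen in this way is no independent evidence of its direction. Named genes are Smarcb1, the 10 genes with the largest change in each direction and without overlap, the 10 with the largest difference in CPM, preset key members and the top members of each list, and for chromosome 4 and SAHA the top 5. Lists are described by counts and medians, without a test. Motifs were searched in RefSeq promoters (GRCm38.p6) of 300 bases. Replicates vary as cultures of 1 cell line, and p-values measure only the spread between these libraries. Results of some named genes are not reported here.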

Additional observations from a re-analysis of the deposited data

How the results depend on the processing

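Alternatives were DESeq2, median-ratio factors, library totals as the only scaling, no filter, a filter of at least 10 counts in every library, a test against a 1.5-fold change, an adjusted p under 0.01, scaling without chromosome 4 genes, a fit of the groups compared only, the replicate number as a block and leaving out each library. Tested against a 1.5-fold change, edgeR called 2748 genes higher and 1842 lower in Smarcb1-RE than in control, and 2056 higher and 1835 lower than in SAHA. With at least 10 counts in every library, 1513 genes rose at least 2-fold. With library totals only, 597 genes fell at least 2-fold, the median of all tested genes moved from 0.01 to 0.17 and the share of calls that were higher from 50.4% to 61.0%. Small differences then changed sign for Bcl11b (0.028), Mdm2 (0.063), Ncf1 (0.014), Nfyc (0.028), Rnf2 (0.13), Sqstm1 (0.02) and Zap70 (0.14). List medians were not computed with DESeq2. In some other alternative the medians of 14 of the 50 lists changed sign, among them PRC1, PRC2, p53 targets, apoptosis and cytoplasmic ribosomal protein genes, so that no direction is given for them. The cause was not tested.

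Without single replicates, between 5087 and 5498 genes rose and between 5093 and 5424 fell, between 2304 and 2441 and between 907 and 1035 at least 2-fold, between 4805 and 5424 were higher and between 4816 and 5334 lower than in SAHA, the Smarcb1 log2 fold change was 4.52 to 5.36 and the chromosome 4 shift 0.385 to 0.403. Same-numbered control and Smarcb1-RE libraries did not deviate together (correlations 0.0215, -0.00856 and 0.0366), so that the numbers do not pair them. With the replicate block, 5335 genes rose and 5253 fell, 2312 and 922 at least 2-fold, 5141 were higher and 4996 lower than in SAHA, and Smarcb1 changed by 4.90. Over 404 named genes and the alternatives, 6677 of 6811 combinations kept the direction and the side of the threshold, 106 lost the call and 21 gained it. Depth limits genes near 3 counts per library.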

Other observations

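Gene groups not described above moved mostly in both directions in Smarcb1-RE, where 39.2% of all tested genes rose and 38.6% fell. Of 30 tested integrin and leukocyte adhesion genes (50 listed), 15 rose, 8 of them at least 2-fold, and 8 fell. Itgb7, which pairs with α4 for homing to the gut, had 0.595, 0.465 and 0.411 CPM in control and 1.83, 2.302 and 2.33 CPM in Smarcb1-RE, and the laminin receptor Itga3 0.638, 0.719 and 0.740 and 3.03, 3.05 and 2.72 CPM, without overlap. Among Notch pathway genes (6 up and 6 down of 22 tested), the ligand Jag2 rose from 24.2, 22.7 and 25.2 to 77.9, 79.8 and 79.04 CPM and Notch1 from 1.45, 2.87 and 2.39 to 5.08, 5.36 and 5.304 CPM. Type 17 and regulatory genes counted 7 up and 2 down of 10 tested, although Foxp3 was too low to be tested, and all 3 tested natural killer receptor genes rose. Myeloid genes were mostly too low to be tested (10 of 46 were), and of these 4 rose and 3 fell.

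Type 1 genes (8 up and 6 down of 18), TGF-β and SMAD genes (13 up and 9 down of 28), NF-κB genes (10 up and 10 down of 28), AP-1, EGR and NR4A factors (12 up and 16 down of 36) and lysosome and autophagy genes (15 up and 20 down of 52) had counts in both directions. Cebpb, a factor of the acute phase and myeloid cells, rose from 14.8, 14.5 and 14.9 to 38.99, 39.8 and 39.8 CPM and Mitf, a factor of pigment cells and lysosomal genes, from 1.32, 1.27 and 1.36 to 6.31, 7.17 and 6.34 CPM.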
